A study of Mus musculus with 5 samples.

Results

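Ccl3, Ccl4, Ccl9, Cxcl2, Ltb, Tnf, Il1b and Il10 encode secreted or membrane-bound signals between immune cells, and their transcripts were followed here in sorted mouse haematopoietic stem cells. They are 8 of the 33894 genes in the count and TPM files, found by symbol, and each has a value in all 5 libraries. The set was chosen by measured values of these libraries, namely higher Ccl3 and Ltb levels in the libraries labelled dKO than in WT. The difference between the groups is therefore given for these genes as a description, without a test. The 2 WT libraries have the genotype label WT, and the 3 dKO libraries carry the genotype Vav-cre and, floxed on both alleles, Lrp5 fl/fl as well as Lrp6 fl/fl, in which Cre driven from the Vav gene, active in blood cells, is meant to delete both floxed genes. All came from bone marrow of mice aged 8 weeks, with RNA from 6K sorted cells a library. The sorted cells were lineage-negative, Sca1-positive and c-Kit-high and lacked CD34 and Flt3. The labels name no Cre in WT, so the transgene and the loss of the genes cannot be told apart. Whether libraries are from separate mice is not stated, so p-values here describe the spread among libraries, which may be technical.

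Chemokines are small secreted proteins that draw leukocytes along a gradient through G protein-coupled receptors, whereas cytokines of the tumour necrosis factor and interleukin families signal through receptors that lead, among other routes, to NF-kappaB. Many of these genes are themselves NF-kappaB targets and are switched on quickly in myeloid cells, and their short-lived transcripts often carry AU-rich elements that recruit RNA decay factors. CCL3 is known in the bone marrow for restraining the proliferation of early haematopoietic progenitors.

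Library totals ranged from 16028512 to 28027458 counts, the lowest being dKO replicate 2, which also stood apart: its closest other library correlated with it at 0.851 across tested genes in log2 CPM, against 0.906 to 0.925 for the others. All 12 stem cell marker genes checked, among them Hlf, Mecom, Procr and Fgd5, had counts in every library. The targeted genes were not lower in the libraries labelled dKO: Lrp6 counts were 660 and 232 in WT against 790, 260 and 767 in dKO, and Lrp5 counts 7 and 32 against 37, 2 and 71. Reads were counted per gene, which leaves a deleted exon unseen, so directions rest on the labels. The quasi-likelihood test of edgeR, adjusted over all genes by Benjamini-Hochberg, called 0 of 13696 tested genes higher and 0 lower, with 677 and 711 at an unadjusted p under 0.05, while DESeq2 called 162 (1.18%) and 92 (0.672%).

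The genes fell into 2 tiers of abundance. In TPM, which scales counts to transcript length and so allows levels of different genes to be set side by side, Ccl9 was the most abundant, at 469 ± 201 TPM in WT (SD, n = 2) and 654 ± 92.4 TPM in dKO (SD, n = 3). Ltb stood at 122 and 78.2 TPM in the WT libraries and at 312 ± 37.5 TPM in dKO, Ccl3 at 74.7 ± 4.48 and 297 ± 12.8 TPM, and Ccl4 at 71.9 ± 23.8 and 195 ± 32.9 TPM. These 4 transcripts were above 50 TPM in every library. Tnf, Cxcl2, Il10 and Il1b formed the lower tier, at 20.7 ± 22, 9.03 ± 6.66, 4.25 ± 0.617 and 0.295 ± 0.511 TPM in dKO. Within dKO, the ranges of Ltb (269 to 339 TPM) and Ccl3 (283 to 309 TPM) overlapped, as did those of Tnf, Cxcl2 and Il10 (3.81 to 4.95 TPM), so the order of these neighbours did not exceed their spread. Ccl9 lay above and Ccl4 below both Ltb and Ccl3 in every dKO library. In WT replicate 1 Ccl4 (88.7 TPM) exceeded Ccl3 (77.9 TPM).

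**Figure D1:**
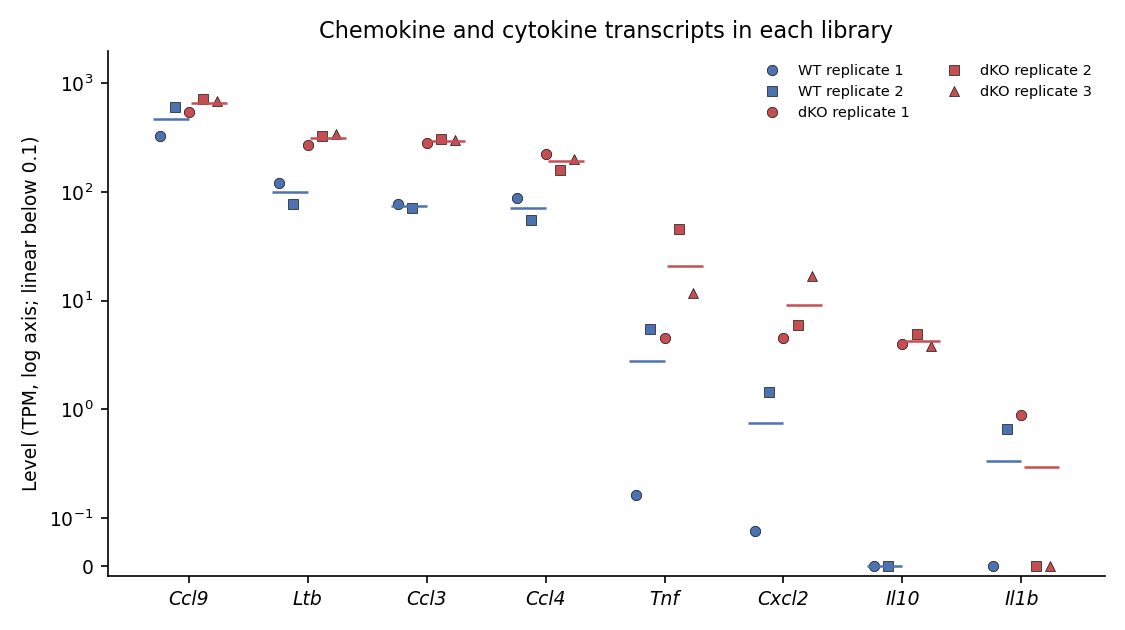
Level of each transcript in TPM (vertical log axis, linear below 0.1) in the 2 WT libraries (blue) and 3 dKO libraries (red), with horizontal lines at the group means. Ccl9, Ltb, Ccl3 and Ccl4 lie above 50 TPM in every library, and Il10 is listed at 0 in both WT libraries.

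Ccl3, Ccl4 and Ccl9 are inflammatory CC chemokines, and in the RefSeq annotation they lie in 1 cluster on chromosome 11 in the order Ccl5, Ccl9, Ccl6, Ccl3, Ccl4. Ccl3, a ligand of CCR1 also known as MIP-1alpha, measured 44.4 and 44.5 CPM (counts scaled to library size with TMM factors) in the WT libraries and 138, 137 and 151 CPM in dKO replicates 1, 2 and 3. All dKO libraries lay above both WT libraries, and the SD within groups was 0.118 and 7.70 CPM. The fitted log2 fold change of dKO over WT was 1.68 (SE 0.22), a ratio of mean CPM of 3.20. Ccl4, or MIP-1beta, measured 35.8 and 25.9 CPM in WT and 84.1, 65.2 and 88.5 CPM in dKO. Its groups did not overlap either, with a log2 fold change of 1.36 (SE 0.30). Because whole-population RNA was sequenced, more cells that express a gene and more RNA per cell cannot be told apart.

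Ccl9, a CC chemokine of myeloid cells that acts through CCR1, overlapped between the groups. It measured 142 and 318 CPM in WT and 211, 305 and 319 CPM in dKO, so that WT replicate 2 lay among the dKO libraries. The log2 fold change was 0.28 (SE 0.35). It moved to 0.97 when WT replicate 2 was left out and to -0.20 when WT replicate 1 was. WT replicate 2 also carried the most transcripts of granulocyte progenitors: the summed level of 7 markers such as Mpo, Elane and Ctsg was 42200 CPM there, 6450 CPM in WT replicate 1 and 11100 to 15800 CPM in dKO. Their part in the Ccl9 values was not tested. Of the cluster's other genes, Ccl5 counts were 118 and 34 in WT against 134, 105 and 354 in dKO, and Ccl6 counts 201 and 181 against 111, 93 and 207. Ccl5 in dKO lay above both WT libraries after scaling and Ccl6 overlapped, so the 5 neighbouring chemokine genes did not share 1 pattern.

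The DNA just before the start sites of Ccl3 and Ccl9 is shown because these members share a gene cluster, and their dKO libraries lay above WT for Ccl3 and overlapped for Ccl9. It comes from the RefSeq promoter table for GRCm38.p6, which holds 6 of the 8 genes (not Ccl4 and Il10), and covers the 250 bases before the start, written 5′ to 3′ on the gene's strand. Capitals mark matches to an NF-kappaB site (GGG, any 2 bases, then TTTCC, both strands), an AP-1 site (TGANTCA, both strands) and a TATA box (TATAAA, gene's strand).
Ccl3, chr11:83649379-83649628, minus strand: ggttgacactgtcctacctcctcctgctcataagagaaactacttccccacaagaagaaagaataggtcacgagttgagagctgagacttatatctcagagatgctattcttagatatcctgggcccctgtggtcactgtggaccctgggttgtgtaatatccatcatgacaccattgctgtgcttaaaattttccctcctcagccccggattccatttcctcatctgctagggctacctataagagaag
Ccl9, chr11:83578637-83578886, minus strand: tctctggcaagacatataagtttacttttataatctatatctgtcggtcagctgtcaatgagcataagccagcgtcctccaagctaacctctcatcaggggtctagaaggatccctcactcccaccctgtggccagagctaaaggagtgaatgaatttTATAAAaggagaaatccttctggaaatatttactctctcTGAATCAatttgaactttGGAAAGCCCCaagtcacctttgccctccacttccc
The Ccl3 window held none of these letters. That of Ccl9 held 1 match to each, the NF-kappaB letters beginning 35 bases, the AP-1 letters 53 bases and the TATA letters 92 bases before the start, and no match overlapped another. Over all 32851 promoter windows of that length, 1.41% held the NF-kappaB letters, 6.75% the AP-1 letters and 7.59% the TATA letters. A match describes letters only, and the absence of one says nothing about binding elsewhere.

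Ltb and Tnf encode cytokines of the tumour necrosis factor family and are next to each other in the RefSeq annotation of chromosome 17, followed by Lta. Ltb, the membrane-bound lymphotoxin beta that holds lymphotoxin alpha at the cell surface, measured 131 and 95.7 CPM in WT and 244, 303 and 340 CPM in dKO. Every dKO library lay above both WT libraries, and the log2 fold change was 1.38 (SE 0.24), a ratio of mean CPM of 2.60. Lta, the partner needed for the secreted and the heterotrimeric lymphotoxins, had 0 counts in all 5 libraries. At this depth a count of 0 allows up to 0.111 to 0.181 CPM per library (3 counts, counting error only).

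Tnf, the tumour necrosis factor gene itself, was far more variable. Its counts were 2 and 138 in WT against 93, 637 and 294 in dKO, which is 0.0760 and 5.53 CPM in WT and 3.43, 38.5 and 10.9 CPM in dKO. WT replicate 2 lay above dKO replicate 1, so the groups overlapped, and the spread inside each group was wide, at 11.2-fold between the highest and the lowest dKO library. The log2 fold change of 2.65 (SE 1.57) rested on single libraries. Leaving out dKO replicate 2 gave 1.35, leaving out WT replicate 1 gave 1.66, and leaving out WT replicate 2 gave 7.75. The immediate neighbours Ltb and Tnf thus differed in spread: in dKO Ltb ranged over 1.39-fold. Of the genes on their other sides, Lst1 counts were 1071 and 983 in WT against 1275, 612 and 1397 in dKO, and Nfkbil1 counts 140 and 234 against 213, 206 and 193.

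Cxcl2, a CXC chemokine that attracts neutrophils through CXCR2, was counted 2 and 25 times in WT and 77, 52 and 303 times in dKO. On the CPM scale these are 0.0760 and 1.0 in WT and 2.84, 3.14 and 11.2 in dKO, with every dKO library above both WT libraries. The log2 fold change was 3.40 (SE 1.56), but 6.14 with WT replicate 2 left out and 2.47 with dKO replicate 3 left out. The genes just before it in the RefSeq order on chromosome 5 are the CXC genes Cxcl1, Cxcl15 and Cxcl3. They had 0 counts in every library but for 3 counts of Cxcl3 in WT replicate 2.

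The promoters of Ltb and Cxcl2 are printed because, with that of Ccl9, they are the windows among these genes that held the NF-kappaB letters. Capitals mark the same motifs as above.
Ltb, chr17:35194257-35194506, plus strand: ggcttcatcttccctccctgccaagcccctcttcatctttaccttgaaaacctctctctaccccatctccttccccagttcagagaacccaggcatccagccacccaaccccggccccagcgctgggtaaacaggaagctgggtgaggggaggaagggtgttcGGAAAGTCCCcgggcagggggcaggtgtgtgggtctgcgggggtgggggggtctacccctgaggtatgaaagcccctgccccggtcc
Cxcl2, chr5:90903649-90903898, plus strand: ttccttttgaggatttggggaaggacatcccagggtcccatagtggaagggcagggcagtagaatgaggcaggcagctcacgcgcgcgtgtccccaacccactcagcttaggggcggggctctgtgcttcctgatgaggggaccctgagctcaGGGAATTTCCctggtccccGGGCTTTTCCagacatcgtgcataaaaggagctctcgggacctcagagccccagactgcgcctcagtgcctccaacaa
Ltb had 1 match to the NF-kappaB letters, on the opposite strand, beginning 87 bases before the start, and Cxcl2 had 2 on its own strand, beginning 97 and 78 bases before it. The windows of Tnf and Il1b held the TATA letters, beginning 29 and 31 bases before the start, and neither held the NF-kappaB or AP-1 letters. Ltb and Cxcl2 thus had the NF-kappaB letters and did not overlap between groups, and Ccl9 had them and overlapped. Ccl3 lacked them and did not overlap, while Tnf and Il1b lacked them and overlapped. Whether the letters bear on the levels was not tested.

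Il10 encodes interleukin-10, a cytokine that dampens inflammatory cytokine production. It had 0 counts in both WT libraries and 67, 48 and 72 counts in dKO replicates 1, 2 and 3, which is 2.47, 2.90 and 2.67 CPM. The dKO libraries were alike, with a mean of 2.68 ± 0.216 CPM (SD, n = 3). Set against the limit of 3 counts in each WT library, a mean of 0.117 CPM, Il10 was at least 22.9-fold higher in dKO. This bound covers counting error only and not the spread between libraries of a group. Of the 13696 tested genes, 32 (0.234%) had no count in either WT library and at least 1 in every dKO library, and Il10 was the 1 gene (0.0073%) among them that reached 48 counts or more in every dKO library. That limit is Il10's own lowest dKO count, so the second share is a description of these libraries. A gene with no WT count, Il10 included, became a tested gene only through its dKO counts. Both shares therefore depend on the filter on low counts as well. Its RefSeq neighbours Il19, Il20 and Il24, genes of the same cytokine family, had 0 counts in all 5 libraries. On the other side, Mapkapk2 counts were 923 and 1072 in WT against 1104, 707 and 1330 in dKO. Next to it, Dyrk3 in dKO lay above both WT libraries, at 28.6 and 19.6 CPM in WT and 55.1, 52.2 and 73.7 CPM in dKO. Eif2d followed and overlapped, at 104 and 79.6 CPM in WT and 109, 103 and 100 CPM in dKO.

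Il1b, which encodes the precursor of interleukin-1beta, was barely detected. Its counts were 0 and 12 in WT against 18, 0 and 1 in dKO, and the TPM files list it at 0 in WT replicate 1 and in dKO replicates 2 and 3. The groups overlapped, and the fitted log2 fold change of -0.02 (SE 2.65) changed sign with single libraries. Il1a, the neighbouring interleukin-1 gene, had 0 counts throughout.

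Ccl3, Ccl4, Cxcl2, Ltb and Il10 were thus the 5 of 8 genes whose dKO libraries all lay above both WT libraries, and the dKO libraries of none lay below. Over all tested genes 13.7% lay above in this way and 15.6% below. Since the genes were chosen for this contrast, nothing is read from that share. On TPM 5 lay above and 0 below, against 18.6% and 8.81% of tested genes. The count was 7 without WT replicate 2, when Ccl9 and Tnf joined, and 6 without dKO replicate 1, when Tnf joined.

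**Figure D2:**
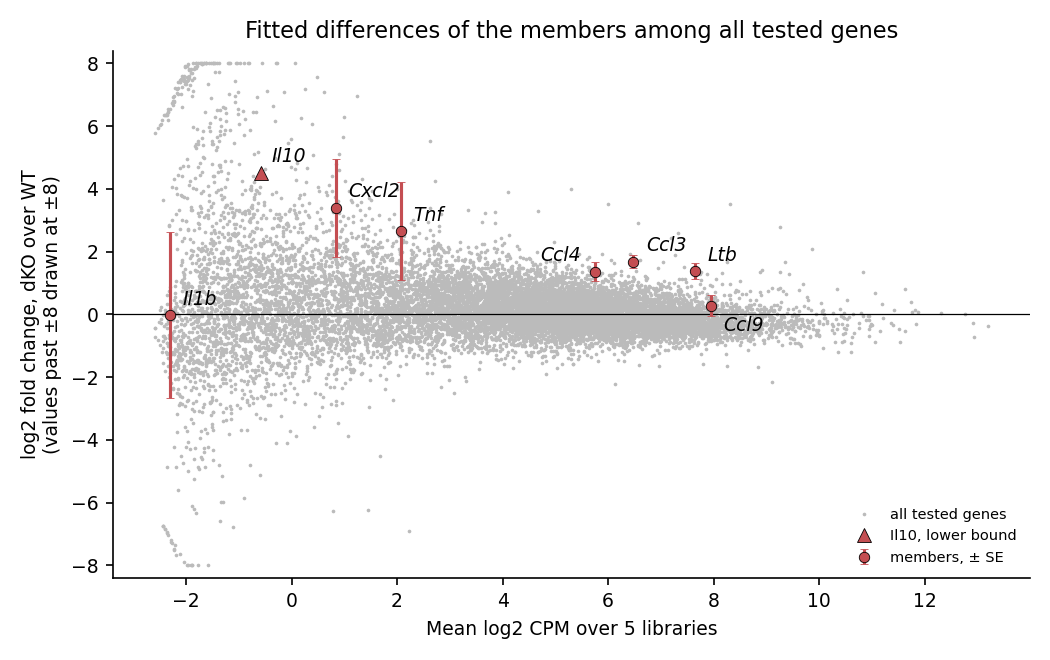
Fitted log2 fold change of dKO over WT (vertical axis) against mean log2 CPM over the 5 libraries (horizontal axis) for all tested genes (grey) and the 8 genes (red, with SE bars), values past 8 in size being drawn at 8. Il10, with 0 counts in WT, is drawn as a triangle at the log2 of its lower bound of 22.9. The SE bars of Cxcl2, Tnf and Il1b are far longer than those of Ccl3, Ccl4, Ccl9 and Ltb.

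The transcripts of these genes also differed in the AU-rich elements of their 3′ untranslated regions, to which decay factors such as tristetraprolin bind. The pentamer ATTTA was counted on the RNA strand (written with T for U) in 1 annotated main transcript per gene of GENCODE M21, on GRCm38. Cxcl2 held 11 copies in 734 bases, Tnf 8 in 764, Il10 6 in 706, Ccl3 5 in 409, Il1b 4 in 459 and Ccl4 2 in 302. Among untranslated regions within 20% of the same length, 0.0874% had as many as Cxcl2, 0.431% as many as Tnf, 2.07% as many as Il10, 1.18% as many as Ccl3, 3.37% as many as Il1b and 13.4% as many as Ccl4. Ccl9, with 5 in 2465 bases, was matched or exceeded by 45.1% of regions of like length, and Ltb had none in 156 bases. The longer element TTATTTATT occurred 4 times in Cxcl2 and 5 times in Tnf (copies may overlap) and in no other of the 8, against 7.14% of all 20713 regions with at least 1. The sites densest in the pentamer are shown for 4 transcripts, capitals marking each ATTTA, with GRCm38 positions.
Tnf, chr17:35199679-35199708, minus strand: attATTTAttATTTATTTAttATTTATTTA
Cxcl2, chr5:90905327-90905356, plus strand: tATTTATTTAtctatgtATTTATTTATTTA
Il1b, chr2:129364808-129364837, minus strand: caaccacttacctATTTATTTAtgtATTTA
Ccl3, chr11:83648085-83648114, minus strand: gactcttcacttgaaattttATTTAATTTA
The sites of Tnf and Cxcl2 hold 5 pentamers each in 30 bases, that of Il1b 3 and that of Ccl3 2.

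Transcripts of receptors for these ligands and of related receptor genes were counted in the same libraries. Whole-population RNA cannot tell whether a ligand and its receptor are in the same cells. This gene list and those below were chosen with earlier results of these data known. Their counts beside the shares of all tested genes are therefore descriptions. edgeR with adjustment over all genes called 0 of 14 tested receptor genes higher and 0 lower (0.00% of all tested genes in each direction). At an unadjusted p under 0.05, 2 were higher and 1 was lower (4.94% and 5.19% of all tested genes), and DESeq2 called 1 higher and 0 lower (1.18% and 0.672% of all tested genes). The median log2 fold change was 0.03, against 0.04 over all tested genes, and 7 had values above 0 and 7 below. All dKO libraries lay above both WT libraries for 2 of the 14 and below for 2, against 13.7% and 15.6% of all tested genes. The atypical chemokine receptor-like gene Ccrl2 measured 16.9 and 18.3 CPM in WT and 35.4, 59.3 and 43.6 CPM in dKO, a log2 fold change of 1.39 (SE 0.37, adjusted p = 0.430 by edgeR), and was the gene called by DESeq2. Il10ra, the ligand-binding chain of the interleukin-10 receptor, measured 6.46 and 3.33 CPM in WT and 10.8, 43.4 and 10.5 CPM in dKO (adjusted p = 0.465 by edgeR).

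Il1rap, the shared chain of interleukin-1 receptors, measured 38.4 and 37.8 CPM in WT and 24.6, 28.4 and 32.8 CPM in dKO (adjusted p = 0.739 by edgeR). Other receptors are given after their values were seen. Ccr1 measured 24.9 and 2.16 CPM in WT and 15.3, 33.1 and 3.30 CPM in dKO, and Ltbr, the lymphotoxin beta receptor, 11.1 and 8.09 against 17.0, 10.9 and 14.6 CPM. Both overlapped between groups. Tnfrsf1a, the main receptor for soluble tumour necrosis factor, was level in all libraries, between 46.0 and 53.3 CPM.

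Of 91 other chemokine and cytokine genes in the files, 51 were too low to test and 32 of these had no count in any library. edgeR with adjustment over all genes called 0 of the 40 tested ones higher and 0 lower, with 3 higher and 1 lower at an unadjusted p under 0.05 (4.94% and 5.19% of all tested genes). DESeq2 called 1 higher and 1 lower (1.18% and 0.672% of all tested genes). The median log2 fold change was 0.46, with 28 above 0 and 12 below, and 1.07 without WT replicate 1. All dKO libraries lay above both WT libraries for 11 of the 40 and below for 3, against 13.7% and 15.6% of all tested genes. Mif, macrophage migration inhibitory factor, was the most abundant of the list at a mean of 1300 TPM and measured 479 and 654 CPM in WT and 352, 320 and 316 CPM in dKO, a log2 fold change of -0.78 (SE 0.19, adjusted p = 0.430 by edgeR). All dKO libraries were below both WT libraries, the opposite side from Ccl3 and Ltb. Cx3cl1, the membrane-bound chemokine fractalkine, was counted 21 and 3 times in WT and 227, 254 and 115 times in dKO (adjusted p = 0.434 by edgeR). DESeq2's calls were these genes, Mif lower and Cx3cl1 higher.

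Cxcl12, the stromal chemokine that holds stem cells in the marrow, was counted 3 and 25 times in WT and 248, 246 and 38 times in dKO (adjusted p = 0.466 by edgeR). Pf4, a platelet chemokine, measured 5.51 and 9.74 CPM in WT and 17.5, 15.5 and 21.2 CPM in dKO (adjusted p = 0.491 by edgeR), alongside a megakaryocyte marker sum of 62.5 to 78.5 CPM in WT and 105 to 131 CPM in dKO, a list that includes Pf4. The part of such cells in the value was not tested. The other abundant members of the list were subunits or relatives of interleukin-12 and single cytokines. Il12a measured 53.1 and 50.9 CPM in WT and 56.7, 93.0 and 86.7 CPM in dKO, and Ebi3, which pairs with such a subunit, 18.7 and 11.1 against 18.7, 38.3 and 42.2 CPM. Il16 lay between 62.3 and 87.7 CPM and Il18 between 19.5 and 35.3 CPM over all libraries.

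NF-kappaB factors and their inhibitors, which are known to act upstream of many such cytokine genes, had log2 fold changes above 0 for 19 of 27 tested genes and below 0 for 8. edgeR with adjustment over all genes called 0 higher and 0 lower, while 9 were higher and 0 lower at an unadjusted p under 0.05, against 4.94% and 5.19% of all tested genes. DESeq2 called 5 higher and 0 lower, against 1.18% and 0.672% of all tested genes. The median log2 fold change was 0.39. All dKO libraries lay above both WT libraries for 14 genes and below for 2, against 13.7% and 15.6% of all tested genes. Since the list was chosen with earlier results of these data known, nothing is read from these shares. The feedback inhibitor Nfkbia measured 158 and 178 CPM in WT and 283, 468 and 515 CPM in dKO. Nfkbiz, a nuclear IkappaB protein, measured 29.1 and 18.9 against 61.7, 109 and 83.7 CPM, and Tnfaip3, the A20 deubiquitinase that ends the response, 16.8 and 15.8 against 39.6, 90.6 and 65.8 CPM. The subunit Rel measured 6.23 and 6.93 CPM in WT and 16.1, 33.1 and 29.3 CPM in dKO. edgeR's adjusted p was 0.430 for each of these 4. The subunit Nfkb1, named after its value was seen, had all dKO libraries below WT, at 218 and 200 CPM in WT and 166, 154 and 186 CPM in dKO.

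Toll-like and interleukin-1 receptor signalling genes, the sensors that commonly switch on these cytokines, had a median log2 fold change of 0.12 over 27 tested genes. edgeR called 0 higher and 0 lower, 0 had an unadjusted p under 0.05 and DESeq2 called 0. Of all tested genes edgeR called 0.00% in each direction, with 4.94% higher and 5.19% lower at an unadjusted p under 0.05. DESeq2 called 1.18% of all tested genes higher and 0.672% lower. All dKO libraries lay above both WT libraries for 3 genes of the list and below for 4, against 13.7% and 15.6% of all tested genes. Irf5, a transcription factor of this route, measured 7.41 and 6.89 CPM in WT and 13.5, 21.6 and 13.4 CPM in dKO. Cd14, the co-receptor for bacterial lipopolysaccharide, measured 2.77 and 7.81 against 16.8, 3.44 and 23.7 CPM, and Tab2 and Irak2 had log2 fold changes of 0.68 and 1.22. Genes that process or antagonise the cytokines had a median of 0.06 over 13 tested genes, again with 0 called by edgeR or DESeq2 and 0 at an unadjusted p under 0.05. The shares of all tested genes are those just given. All dKO libraries lay above both WT libraries for 1 of the 13 genes and below for 1. Adam17, the protease that releases tumour necrosis factor from the membrane, had a log2 fold change of -0.31, the inflammasome adaptor Pycard -0.31, Furin 0.99 and Rhbdf1, which helps deliver ADAM17, 2.24.

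Genes that set the stability of cytokine transcripts had a median log2 fold change of 0.44 over 15 tested genes. All dKO libraries lay above WT for 9 of them and below for 1, against 13.7% and 15.6% of all tested genes. This list, too, was chosen with earlier results of these data known, so nothing is read from its shares. edgeR with adjustment over all genes called 0 higher and 0 lower, with 4 higher and 0 lower at an unadjusted p under 0.05 (4.94% and 5.19% of all tested genes), and DESeq2 called 3 higher and 0 lower (1.18% and 0.672% of all tested genes). Zfp36, which encodes tristetraprolin, measured 306 and 245 CPM in WT and 666, 910 and 507 CPM in dKO, a log2 fold change of 1.33 (SE 0.28, adjusted p = 0.430 by edgeR). Its relative Zfp36l1 measured 10.2 and 12 against 28.4, 27.4 and 36.2 CPM, and Tia1, which binds AU-rich elements and holds back translation, 107 and 74.1 against 183, 173 and 157 CPM. Tial1, a close relative of Tia1, had a log2 fold change of 0.73.

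**Figure D3:**
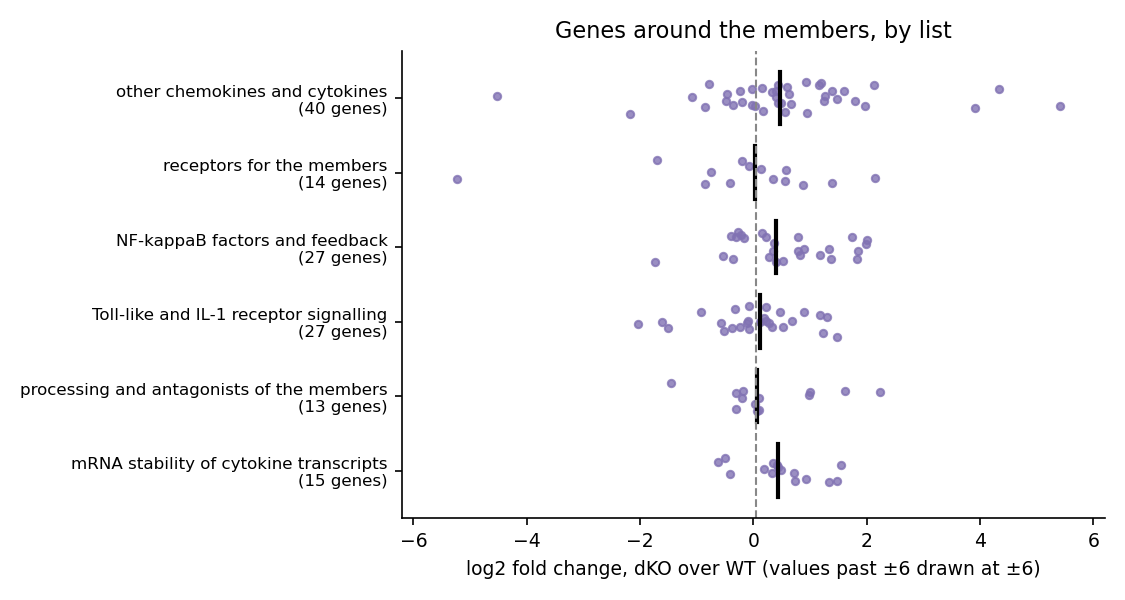
Fitted log2 fold change of dKO over WT for each tested gene (points) of the 6 gene lists around the members, with the list median as a black bar and the median of all tested genes, 0.04, as a dashed line. The medians of the NF-kappaB, the transcript stability and the other chemokine and cytokine lists lie at 0.39, 0.44 and 0.46, those of the other 3 between 0.03 and 0.12.

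The genes whose levels followed those of Ccl3 and Ltb most closely were sought by the root mean square difference of centred log2 CPM over the 5 libraries, among 7516 genes with a mean log2 CPM of at least 4. Closest to Ccl3 were Rgs1, a regulator of chemokine receptor signalling, at 0.149, then Zfp36l1 (0.158), the actin-severing protein gene Gsn (0.199), Il17re (0.208) and Klhl4 (0.219), against a median distance of 0.92. Ltb was 8th and Ccl4 11th in nearness to Ccl3, while Ccl9 was 1978th. Closest to Ltb was Ctla2a, a cysteine protease inhibitor gene, at 0.036, followed by Mllt3 (0.075), the noncoding RNA Malat1 (0.087), the antiproliferative gene Tob1 (0.118) and the cyclin gene Ccnl1 (0.121), against a median of 0.81. Mllt3 supports stem cell maintenance and is in the stem cell marker list used here. The 5 libraries include the difference between the groups for which Ccl3 and Ltb were chosen, so these distances describe and test nothing.

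Marker lists of other cell types that make these signals were summed for each library. They were also chosen with earlier results of these data known, so counts of markers beside the share of all tested genes are descriptions. Mast cell and basophil markers, of cells rich in Ccl3 and Ccl4, summed to 224 and 685 CPM in WT and 422, 1120 and 525 CPM in dKO, with 9 of 10 markers counted in every library and Gzmb at 0 in 1. Of the 10 markers, 7 had all dKO libraries above both WT libraries, as Ccl3, Ccl4 and Ltb did, against 13.7% of all tested genes. The protease gene Cpa3 measured 40.4 and 38.1 CPM in WT and 60.1, 124 and 96.1 CPM in dKO, and Prss34 53.9 and 14.7 against 131, 489 and 152 CPM. Mcpt8, at 88.6 and 342 CPM in WT and 93.6, 317 and 166 CPM in dKO, overlapped. The part of these cells in the values of Ccl3 and Ccl4 was not tested. Monocyte and macrophage markers summed to 919 and 1530 CPM in WT and 1450, 1910 and 1530 CPM in dKO, with 9 of 14 counted in every library and Emr1, Fcgr1, C1qa and Mrc1 at 0 in some. Tnf was lowest where this sum was lowest, in WT replicate 1, and highest where it was highest, in dKO replicate 2, and the same holds for the mast cell and basophil sum. The part of these cells in the Tnf values was not tested.

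B cell markers, of cells that make lymphotoxin, summed to 166 and 113 CPM in WT and 131, 300 and 354 CPM in dKO, with Cd22 at 0 in every library and Ms4a1 and Pax5 at 0 in some. Of the 10 markers, 4 (Vpreb1, Cd79a, Blnk and Ebf1, named after their values were seen) had all dKO libraries above both WT libraries, as Ltb did, and 0 had them below. Over all tested genes 13.7% lay above in this way and 15.6% below. Cd79a, a chain of the B cell receptor, measured 15.5 and 3.53 CPM in WT and 20.5, 49.6 and 52.2 CPM in dKO. Cd79b, the list's most abundant gene, overlapped, at 104 and 90.7 CPM in WT and 63.2, 94.4 and 119 CPM in dKO. The part of B cells in the Ltb values was not tested. T and NK cell markers summed to 765 and 1910 CPM in WT, mostly Nkg7, and to between 598 and 757 CPM in dKO, with Cd3e at 0 in every library. Neutrophil markers ranged from 196 to 564 CPM in WT and 97.4 to 246 CPM in dKO, with Mmp9 at 0 in all. Of the 11 sums, 4 lay above both WT libraries in every dKO library, as Ccl3 and Ltb did. They were those of stem cells (1180 to 1780 CPM in WT, 2250 to 2460 in dKO), dendritic cells (361 to 399 against 542 to 1030, with Batf3 at 0 in all), erythroid cells (95.8 to 102 against 164 to 182) and megakaryocytes, whose values are given above. Of the 10 dendritic cell markers 4 had all dKO libraries above both WT libraries (13.7% of all tested genes), Cd74, H2-Ab1, H2-Eb1 and H2-Aa. Bst2 overlapped, and Siglech, Itgax and Cd209a were at 0 in some libraries. Of the 8 erythroid markers 2 did, Car1 (6.57 and 6.45 CPM in WT, 69.9, 58.2 and 62.7 in dKO) and Rhag. Hba-a1, the most abundant, overlapped (64.0 and 63.8 against 37.7, 53.1 and 74.8 CPM). H2-Eb1, H2-Aa and Rhag are named after their values were seen. Endothelial and stromal markers overlapped, at 107 to 136 CPM in WT and 84.3 to 142 CPM in dKO. Their part in the values of Ccl3, Ccl4 and Ltb was not tested.

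**Figure D4:**
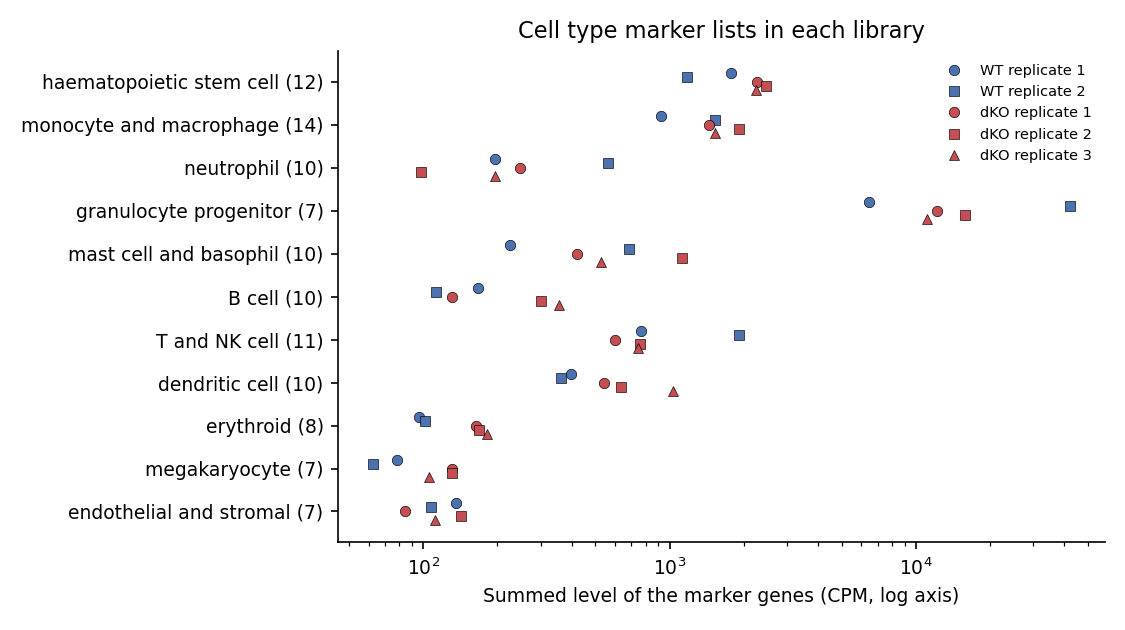
Summed level in CPM (horizontal log axis) of 11 cell type marker lists in the 2 WT (blue) and 3 dKO libraries (red), with the number of markers in brackets. The granulocyte progenitor sum of WT replicate 2, 42200 CPM, stands apart from the other libraries, and the stem cell sum is higher in all 3 dKO libraries than in both WT libraries.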

How the data were processed

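Bulk RNA of sorted cells was sequenced from Smart-seq2 libraries, per the labels' protocols, a method that does not mark strand. The authors deposited gene counts that are raw and whole, and TPM in files of their own, per the file headers. Per the submitters' processing notes, the build was mm9 and the tools were TopHat2 2.1.1, HTSeq, RSEM 1.2.31, DESeq2, Trimmomatic and FastQC 0.11.5. Their roles and settings are not given in the sources used here. Of 33924 entries per file, 30 name no gene (0.216% to 0.269% of counts) and were left out.

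Counts were fitted with edgeR 4.0.16 in R 4.3.3 (TMM, filterByExpr, robust quasi-likelihood, Benjamini-Hochberg adjusted p under 0.05) over 5 libraries without covariates. CPM are TMM-scaled. All 8 genes passed the filter. With 2 against 3 libraries, a two-sided permutation test cannot go below 0.20. The common dispersion was 0.461. Libraries of a group differed beyond sampling noise (chi-square per degree of freedom 106 to 172), and each was counted as 1 sample. Depths are in the report, and limits from 3 counts cover counting error only.

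The members, the 6 gene lists and the 11 marker lists were chosen with earlier results of these data known. Of all list entries, 1 (Ccl28) had no match. Named are the 8 genes, Lrp5 and Lrp6, up to 4 genes per list with the smallest p, 6 abundant cytokines, up to 3 markers per list, annotated neighbours and the 5 genes nearest to Ccl3 and Ltb in pattern (prior count 2). 1 receptor gene and 1 marker gene are not reported here, though the counts and sums of their lists include them. Any further gene was picked with its values in view, as the text says. Alternatives were DESeq2 1.42.0, limma 3.58.1 (voom with sample weights, or log2 TPM with a pseudocount of 1 or 0.1), other scalings and filters, a replicate block and each library left out.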

Additional observations from a re-analysis of the deposited data

How the results depend on the processing

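With the rule on low counts removed, edgeR called 5 genes higher (Car1, Ccl3, Cdkn1a, Clk1 and Rgs1) and 3 lower (Glo1, Gm15487 and Gm3608). They, and the genes named next, are given after their values were seen, and Ccl3 is a gene chosen on this contrast. DESeq2 called 162 higher and 92 lower, and limma-voom, the other scalings, the stricter filter and both TPM fits called 0. Leaving out 1 library gave 0 to 2 higher and 0 to 3 lower: Ighm and Igkv10-94 higher and Alas1, Ctsg and Ms4a3 lower without WT replicate 1, Igkv4-74 lower without WT replicate 2, and Ctse higher without dKO replicate 2. A lone WT library is assumed to vary like the others. Leaving out 1 library put the log2 fold change of Ccl3 at 1.64 to 1.71, Ccl4 at 1.14 to 1.61, Ltb at 1.17 to 1.62, Cxcl2 at 2.47 to 6.14, Tnf at 1.35 to 7.75, Ccl9 at -0.20 to 0.97 and Il1b at -1.0 to 5.55. Il1b could not be fitted without dKO replicate 1, where it did not pass the filter. The Il1b values with a changed sign were 0.97 by limma-voom, 0.52 with the replicate block, and, with 1 library left out, 5.55 (WT replicate 2), 0.55 (dKO replicate 2) and 0.49 (dKO replicate 3). Without WT replicate 1 Ccl9 had -0.20.

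On the TPM scale, as log2(TPM + 1) and log2(TPM + 0.1), Ccl3 had 1.98 and 1.99 and Ltb 1.66 and 1.67, where the median of all tested genes moved from 0.04 to 0.14. The Il10 bound was 21.9 to 23.8 with a library left out, and no fold was taken from TPM, which lists it at 0 in WT. Under a filter of 5 CPM in 2 libraries 5 of the 8 genes were left, of which 3 did not overlap. Without 1 library 5 to 7 of the 8 did not overlap.

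DESeq2 called 1 higher and 1 lower gene of the other chemokines and cytokines, 1 higher receptor, 5 higher NF-kappaB genes and 3 higher transcript stability genes. No list gene was called by edgeR under any alternative run. List medians with a library left out were 0.48 to 1.07 for other chemokines and cytokines, 0.34 to 0.64 for NF-kappaB, 0.33 to 0.59 for transcript stability, -0.14 to 0.45 for receptors, -0.07 to 0.18 for Toll-like signalling and -0.06 to 0.11 for processing. The receptor median was -0.08 without a filter, 0.26 with the stricter one, -0.03 without WT replicate 2 and -0.14 without dKO replicate 2. The Toll-like median was -0.08 by limma-voom and -0.07 without dKO replicate 3. The processing median was 0.17 on log2(TPM + 1), -0.02 without WT replicate 2 and -0.06 without dKO replicate 2. On log2(TPM + 0.1) the NF-kappaB median was 0.57 and that of transcript stability 0.60. The cause of these shifts was not tested.

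With the replicate number as a block edgeR called 1 gene, Nr4a1, higher and 0 lower, the Toll-like median was -0.07 and the processing median -0.16. The numbers were not taken as pairs, since the labels do not say that they mark pairs and only 2 numbers are shared. Same-numbered libraries correlated at 0.0325 and 0.0458 in their deviations from group means. With 2 WT libraries those deviations are equal and opposite, so these correlations cannot decide whether the numbers mark pairs. In the order of TPM levels 2 genes changed places when the median replaced the mean (Ccl3 and Ltb) and 0 to 2 with a library left out. The 5 genes nearest to Ccl3 and to Ltb were all shared under RLE scaling and a prior count of 0.5. Low counts limit the precision for Il1b, Il10 and Cxcl2.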
